A study of Capra hircus with 6 samples.

Results

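MITF and DCT are a regulator and an enzyme of pigment cells, and each was measured here by a single mRNA transcript, XM_005695740.1 for MITF and XM_005687700.1 for DCT. They were chosen by name as 2 of the 27947 mRNA transcripts measured. Both passed the filter on low values, a mean of at least 0.1 FPKM over the libraries, as 2 of 23090 transcripts that did. FPKM is a count of sequenced fragments corrected for transcript length and library size, so the levels of both genes can be set side by side.

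RNA of whole skin from 100-day goat fetuses was sequenced in 6 libraries after removal of ribosomal RNA, with strand kept. Of these, 3 came from the Youzhou dark goat, whose skin and visible mucous membranes are dark under a mostly white coat (libraries dark 1 to dark 3). The other 3 were of the Yudong white goat, whose coat and skin are both white (libraries white 4 to white 6). The study took 3 pregnant ewes of each breed and collected dorsal and ventral skin of each fetus, but the labels do not give the site or the sex for a library. No treatment was given, so the comparison is between breeds, and breed cannot be told apart from any difference in how the animals of each breed were kept or collected.

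MITF is a transcription factor of the basic helix-loop-helix leucine zipper family and the central regulator of the melanocyte lineage, from the neural crest precursors (melanoblasts) to the pigment cell. The gene has several promoters, and other cells such as mast cells and osteoclasts also use it. In melanocytes MITF binds short E-box motifs near the genes for tyrosinase and its relatives and switches them on. DCT (dopachrome tautomerase) is one of these relatives: it turns dopachrome into a carboxylated indole that enters the brown to black pigment eumelanin, and it is already made in melanoblasts.

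The measured MITF transcript was present at similar levels in all libraries, whereas DCT was low in white skin, several times higher in dark skin, and highest by far in 1 dark library. RefSeq lists 7 accessions for MITF, of which 1 was measured here, so its values need not hold for the whole gene. From dark 1 to dark 3 MITF had 10.5, 12.6 and 8.78 FPKM, and from white 4 to white 6 it had 8.31, 8.48 and 9.44 FPKM. The breeds overlapped, since white 6 lay above dark 3. DCT, in the same order, had 18.4, 4.31 and 4.70 FPKM in the dark libraries and 0.941, 1.18 and 1.14 FPKM in the white ones. Every dark library lay above every white library, and dark 1 lay 4.28 times above the lowest dark library.

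The study designed a primer pair for DCT, which is shown because it is the designed sequence that picks DCT mRNA out of skin RNA. Letters are in lower case, 5′ to 3′, and no base is singled out.
DCT forward primer: tgccttagacctcgcaaag
DCT reverse primer: ggagccacacaaagaaatcg

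**Figure D1:**
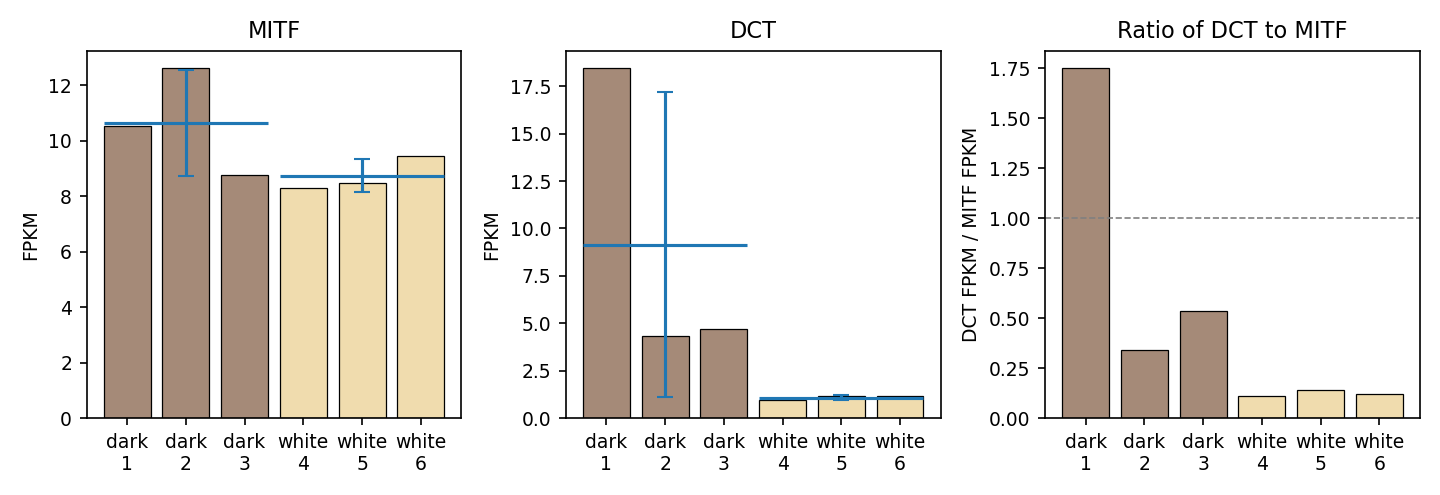
FPKM of MITF (left) and DCT (middle) and the ratio of DCT to MITF FPKM (right) in each library, as bars (brown for dark skin, pale for white skin). Blue lines are the mean of each breed and blue bars its SD (n = 3), and the dashed line marks a ratio of 1. MITF runs from 8.31 to 12.6 FPKM, while DCT runs from 0.941 to 18.4 FPKM and exceeds MITF only in dark 1.

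The breeds were compared with limma on log2(FPKM + 0.1) in 1 fit over all 23090 transcripts, and its 2-sided p-values were adjusted after Benjamini and Hochberg. Because of the added 0.1, log2 differences of low transcripts come out too small. The labels name no fetus or skin site for a library, and the p-values set each breed difference against the spread between libraries of a breed. MITF averaged 10.6 ± 1.92 FPKM (SD, n = 3) in the dark breed and 8.74 ± 0.607 FPKM (SD, n = 3) in the white breed. Its log2 difference of 0.27 had a standard error of 0.15, an unadjusted p of 0.127 and an adjusted p of 0.660 by limma. MITF was thus not called at an adjusted p of 0.05. For DCT the means were 9.15 ± 8.05 (SD, n = 3) and 1.09 ± 0.128 (SD, n = 3), a ratio of means of 8.41. Its log2 difference of 2.63 had a standard error of 0.55, an unadjusted p of 0.00228 and an adjusted p of 0.409 by limma, so the call was not made at an adjusted p of 0.05. Without dark 1 the ratio of means was 4.14, and the log2 difference was 1.96 (adjusted p = 0.277 from limma). The exact 2-sided permutation test, with 20 arrangements, gave p = 0.2 for MITF and p = 0.1 for DCT, the latter being the smallest p that 3 libraries against 3 allow.

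Few transcripts passed this test. Over all transcripts 1 was called higher in dark skin and 1 lower, each 0.00433% of those tested, and 1913 had an unadjusted p under 0.05 (4.48% higher and 3.8% lower in dark skin). Neither called transcript had a gene symbol, and both were listed at 0 in all 3 libraries of a breed, which in this table can be a failed estimate. Without overlap between the breeds, 7.65% of all tested transcripts lay higher in dark skin and 7.06% lower. DCT ranked 128 and MITF 4432 of the 23090 transcripts by unadjusted p. Among transcripts with a mean of at least 1 FPKM in either breed, 302 had at least 2 times the mean FPKM in dark skin, 134 of these did not overlap between the breeds, and DCT held rank 21 of the 134 by this ratio, with 5 that were listed at 0 in every white library placed before it. In whole skin, fewer cells of a type and less RNA per cell cannot be told apart, so these levels do not separate the number of pigment cells from their content.

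The rank of DCT within each library moved with its level, and that of MITF hardly did. Among the transcripts above 0 in a library, MITF exceeded between 66.0% (white 4) and 75.2% (dark 2). DCT exceeded 82.9% in dark 1, 53.5% and 54.0% in dark 2 and 3, and between 31.3% and 35.0% in white skin. Thus DCT stood in the lower part of the white skin transcriptome and in the upper part of 1 dark skin transcriptome.

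The spread within a breed also differed between the genes. On the log2 scale the SD within breeds was 0.20 for MITF, against a median of 0.18 over the 6994 transcripts whose mean FPKM was within a factor of 2 of its own. For DCT it was 0.83, against a median of 0.23 over 6438 transcripts of like level, and 93.9% of those had a smaller SD. The coefficient of variation of DCT was 88.0% in dark skin and 11.8% in white skin, and that of MITF was 18.0% and 6.95%. The wide error of the DCT comparison therefore came from the dark libraries, where the range was 14.1 FPKM, and not from the white ones, where it was 0.238 FPKM.

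The ratio of enzyme to regulator was compared next, because it does not depend on the scaling of a library. From dark 1 to dark 3 DCT had 1.75, 0.342 and 0.535 times the FPKM of MITF, and from white 4 to white 6 it had 0.113, 0.139 and 0.121 times. All dark libraries lay above all white libraries. On the log2 scale with 0.1 added to both levels, the ratio averaged -0.54 ± 1.20 (SD, n = 3) in the dark breed and -2.90 ± 0.14 (SD, n = 3) in the white breed. Their difference of 2.36 gave p = 0.1 in the exact 2-sided permutation test, which cannot give a smaller p with 3 libraries against 3. When each library was left out in turn, the difference was smallest, 1.69, with dark 1 left out and largest, 2.86, with dark 2 left out.

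Regulator and enzyme peaked in different libraries. MITF was highest in dark 2, where DCT was the lowest of the dark libraries. Over all 6 libraries Pearson's r between their FPKM was 0.377 (exact permutation p = 0.425 over 720 orders, 2-sided) and Spearman's rho was 0.600 (exact permutation p = 0.242), for this 1 pair, unadjusted. DCT separated the breeds, so this pooled value mixes the difference between breeds with the relation inside them. With the mean of each breed removed, r was -0.0657. The libraries farthest from the median of MITF were dark 2 and 1, and without them r was 0.0674. Left out alone, dark 2 moved r to 0.868 (exact permutation p = 0.075 over the remaining 5 libraries).

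The other melanocyte genes came from 5 lists with 116 genes, of which 41 had a transcript with a matching symbol. They gave 50 transcripts, and 48 of these, MITF and DCT included, were tested. None was called at an adjusted p of 0.05 by limma, and 3 had an unadjusted p under 0.05, namely DCT, WNT2 and BCL2A1. Higher in dark skin without overlap were 2 of the 48, DCT and SLC45A2, and lower without overlap were 3, WNT2, BCL2A1 and POU3F2. Both shares lie below those of all tested transcripts in the same direction. Tyrosinase, TYRP1, PMEL, SOX10, MC1R, ASIP and KIT are among the genes not analysed here.

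Of the 20 genes for pigment enzymes and melanosome proteins, 11 were matched, with 13 tested transcripts. Their median log2 difference was 0.13, beside -0.01 for all tested transcripts. SLC45A2, a melanosomal transporter whose loss causes a form of albinism, had 2.42, 2.66 and 5.92 FPKM in dark 1 to 3 and 1.11, 2.17 and 2.08 FPKM in white 4 to 6. Its log2 difference was 0.94 (standard error 0.42, adjusted p = 0.615 from limma), and 0.54 without dark 3. OCA2, which sets the pH of melanosomes, had 8.27, 6.44 and 7.11 FPKM in dark skin and 6.82, 7.12 and 5.96 FPKM in white skin, with overlap. MLANA, a melanosomal membrane protein of melanocytes, had 11.4, 12.5 and 8.54 FPKM in dark skin and 1.32, 4.72 and 15.1 FPKM in white skin. Its highest library was thus a white one, in which DCT was at 1.14 FPKM, and its lowest also a white one. SLC24A5, an ion exchanger of melanosomes, overlapped between the breeds as well, at 16.2, 12.8 and 9.92 FPKM in dark skin and 10.7, 13.3 and 13.4 FPKM in white skin. GPNMB, a melanosomal glycoprotein also made by macrophages, was the most abundant of the list, between 84.4 and 143 FPKM in each library. ATP7A, which supplies copper to tyrosinase, ran from 10.1 to 12.6 FPKM in dark skin and from 12.1 to 14.3 FPKM in white skin. Of the 12 transcripts of this list other than DCT, 3 had their highest FPKM in dark 1 (SLC24A5, OCA2 and 1 transcript of SLC24A4), as did 16.5% of all tested transcripts, and 4 had it in dark 3, as did 18.2% of all tested transcripts.

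**Figure D2:**
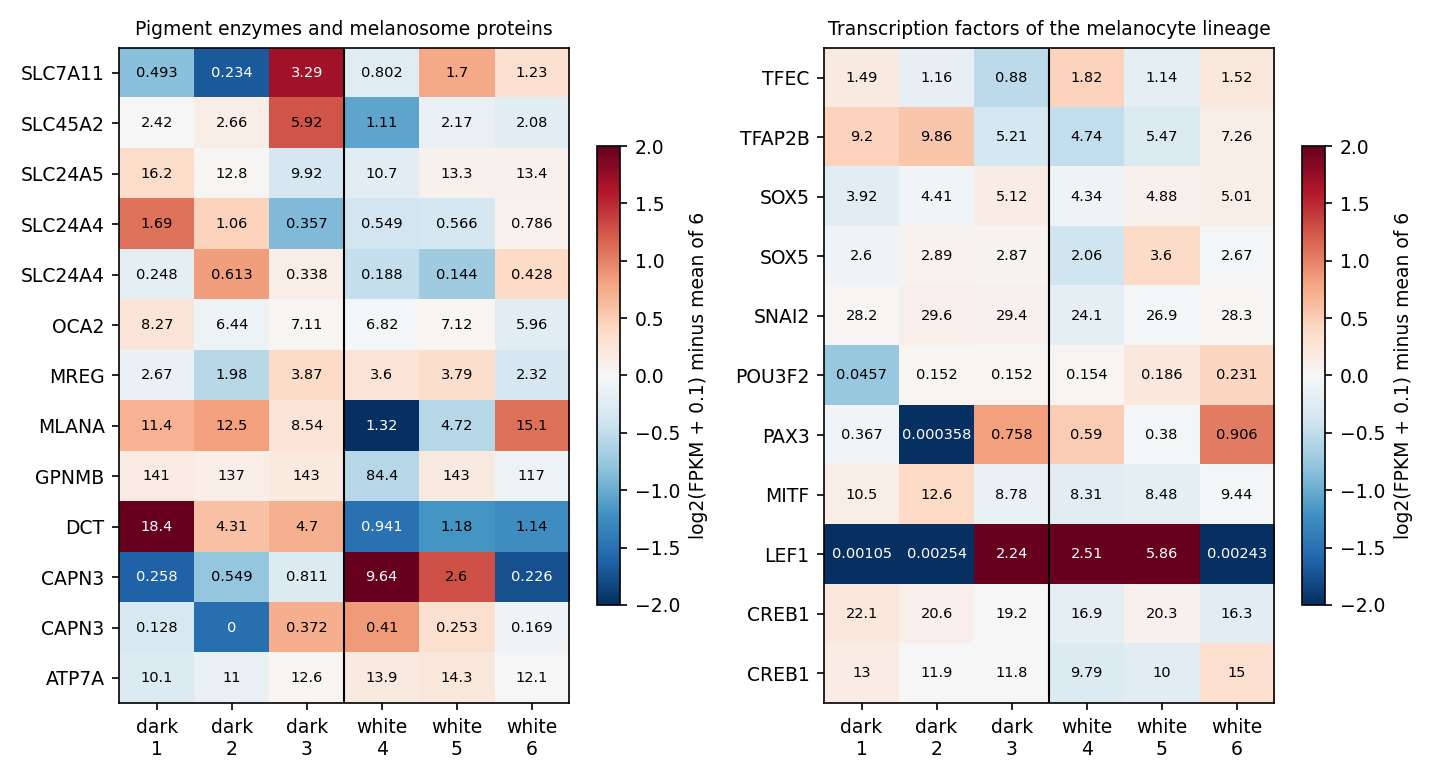
FPKM (numbers in the cells) of the tested transcripts of pigment enzymes and melanosome proteins (left) and of transcription factors of the melanocyte lineage (right), by library. Colors give log2(FPKM + 0.1) minus the mean of the 6 libraries and are capped at 2 in either direction. DCT is above its mean in all 3 dark libraries, and MITF departs little from its mean in any library.

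Genes that carry and build melanosomes gave 7 tested transcripts from 7 of 25 genes, and none was called or free of overlap. Over all tested transcripts 7.65% were higher and 7.06% lower in dark skin without overlap, so in a list this short none is near that share. RAB38, a small GTPase that brings tyrosinase family proteins to the melanosome, had 11.3, 12.2 and 20.9 FPKM in dark skin and between 11.5 and 12.8 FPKM in white skin.

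Transcription factors of the lineage gave 11 tested transcripts from 9 of 22 genes, with a median log2 difference of 0.04. TFAP2B, of the AP-2 family, had 9.20, 9.86 and 5.21 FPKM in dark skin and 4.74, 5.47 and 7.26 FPKM in white skin. It was the list's transcript closest to MITF, with r = 0.936 over the 6 libraries, under the cutoff of 0.95. PAX3, an activator of MITF in melanoblasts, was low, between 0.000358 and 0.906 FPKM, and SNAI2, a factor of neural crest migration, was steady between 24.1 and 29.6 FPKM. POU3F2 was lower in dark skin without overlap, at 0.0457, 0.152 and 0.152 FPKM against 0.154, 0.186 and 0.231 FPKM, but these values are near the filter and the log2 difference of -0.46 had an adjusted p of 0.780 from limma. It was -0.20 without dark 1 and -0.09 with 1 added in place of 0.1. TFEC, the relative of MITF in the same family, was tested with 1 transcript and ran from 0.880 to 1.82 FPKM.

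Signalling genes gave 7 tested transcripts from 6 of 30 genes. WNT2, a secreted ligand, was lower in dark skin without overlap (log2 difference -0.93, standard error 0.24, adjusted p = 0.472 from limma). EDNRB, the endothelin receptor of melanoblasts, had 20.2, 28.2 and 53.8 FPKM in dark skin and 25.2, 36.9 and 23.3 FPKM in white skin, with overlap. DKK1, a secreted WNT inhibitor that lowers MITF in palm and sole skin, had 12.7, 10.6 and 8.06 FPKM in dark skin and 4.59, 8.42 and 9.32 FPKM in white skin, with overlap.

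Of 21 further genes reported as bound by MITF, 8 were matched, with 11 tested transcripts. BCL2A1, a survival gene of melanocytes, lay lower in dark skin without overlap, at 0.769, 0.408 and 0.544 FPKM against 1.06, 1.08 and 1.76 FPKM (log2 difference -1.06, standard error 0.35, adjusted p = 0.557 from limma). CTSK, the collagen protease that MITF drives in osteoclasts, ran from 219 to 276 FPKM in dark skin and from 209 to 279 FPKM in white skin.

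On FPKM over all 6 libraries none of the list transcripts reached an absolute r of 0.95 with MITF or with DCT, apart from each with itself. On the log2 scale the less abundant CAPN3 transcript had r = -0.965 with MITF, and on FPKM without dark 2 TFAP2B had r = 0.984, ATP6V0D2 r = -0.979 and ATP7A r = -0.966 with MITF. With DCT none passed on the log2 scale or, on FPKM, without dark 1. The medians of r with MITF ran from -0.313 to 0.154 over the 5 lists, and those of r with DCT from -0.102 to 0.358. Within the list of pigment proteins, r with DCT ran from -0.777 (ATP7A) to 0.852 (1 transcript of SLC24A4). Without dark 1 the r of these transcripts was -0.649 for ATP7A and 0.092 for SLC24A4.

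**Figure D3:**
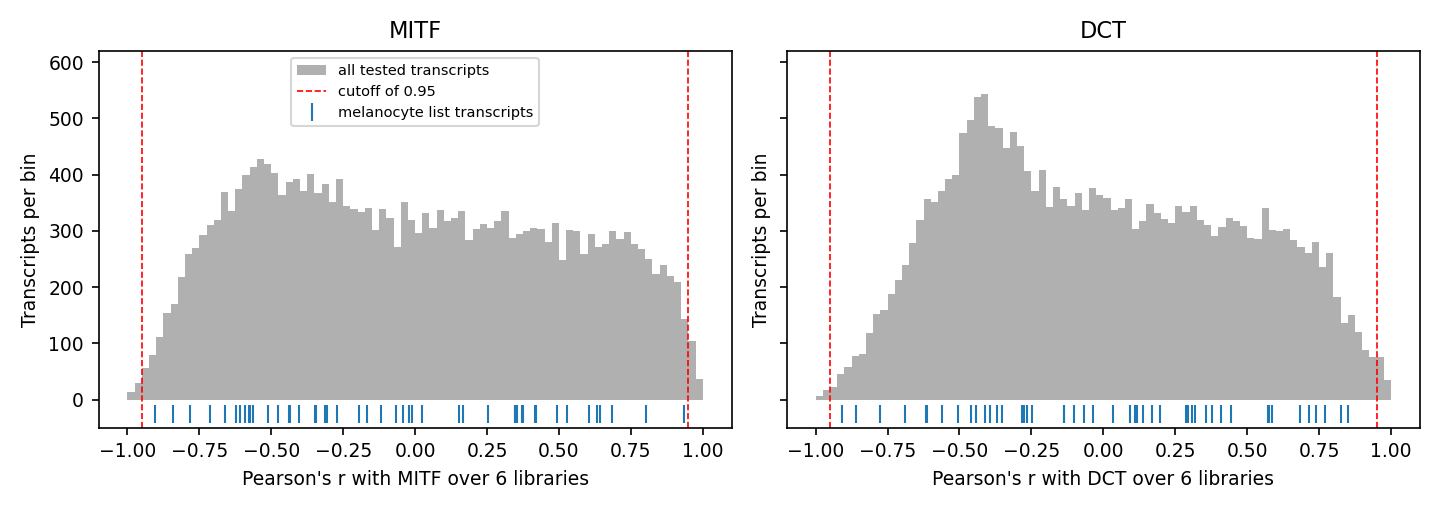
Distribution of Pearson's r with MITF (left) and with DCT (right) over the 6 libraries, across the tested transcripts other than these 2 (gray, number per bin). Blue ticks mark the tested transcripts of the 5 melanocyte lists, the other of the 2 genes included, and red dashed lines mark the cutoff of 0.95. The ticks are spread over the range of r, and none lies past the cutoff.

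Transcripts that vary with each gene were then taken from the whole table by the cutoff the study used for its pairs, an absolute Pearson's r of 0.95 on FPKM over the 6 libraries. All pairs share the same libraries and their scaling, and no p is given. With MITF, 141 transcripts passed with positive r (0.611% of those tested) and 42 with negative r (0.182%). With DCT, 110 passed with positive r (0.476%) and 24 with negative r (0.104%). When each tested transcript was taken in turn in place of MITF or DCT, the median number past the cutoff was 101, with percentiles 10 and 90 at 45 and 270. MITF, with 183, had more than 76.8% of transcripts and DCT, with 134, more than 63.2%, so neither number stands far from the rest. The values closest to the cutoff for MITF were 0.950056 inside and 0.949943 outside, so membership at the edge is a matter of small differences.

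Since MITF departs most from its mean in dark 2, a transcript can pass the cutoff only if it is highest or lowest there. Without that library 43 of the 141 transcripts with positive r and 16 of the 42 with negative r still passed. Between the breeds 122 of the 141 overlapped, and 19 (13.5%) were higher in dark skin without overlap, against 7.65% of all tested transcripts. Of the 42 with negative r, 7 (16.7%) were lower in dark skin without overlap, against 7.06%. The median ratio of dark to white mean FPKM was 1.31 for positive r and 0.831 for negative r. MITF itself had the higher mean in dark skin, so likeness to it favors these directions. The lowest ratio among the 141 was 1.05, and the highest among the 42 was 0.942. Closest to MITF among named transcripts with a mean of at least 1 FPKM was SDHAF3, an assembly factor of mitochondrial complex II, at 7.55, 9.27 and 6.05 FPKM in dark skin and 6.07, 5.94 and 7.06 FPKM in white skin (r = 0.990). OSR2, a zinc finger transcription factor, followed with r = 0.989, and it moved more than MITF, from 8.17 FPKM in white 4 to 30.1 FPKM in dark 2. The next were TPRKB, part of the complex that modifies transfer RNA (r = 0.986), TCF4, a basic helix-loop-helix factor (r = 0.985), and FAM180A (r = 0.985). With the mean of each breed removed, r of these 5 was between 0.977 and 0.995, and without dark 2 between 0.937 and 0.976.

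Lowest with MITF was PRDX3, a mitochondrial peroxidase, at 33.3, 30.3 and 37.5 FPKM in dark skin and 37.9, 37.5 and 34.9 FPKM in white skin (r = -0.985). ATG4A, a protease of autophagy, TSPAN17, CD320, the receptor for vitamin B12 bound to its carrier, and GALNT1, which starts mucin-type sugar chains, had r between -0.982 and -0.981. With libraries scaled to their median all 5 missed the cutoff, with r of -0.859 for PRDX3, -0.911 for ATG4A, -0.435 for TSPAN17, -0.934 for CD320 and -0.604 for GALNT1, while the 5 with highest r stayed between 0.974 and 0.995. Of the 5 lowest only GALNT1 did not overlap between the breeds. On the log2 scale the 5 highest were SDHAF3, ERCC5, OSR2, TPRKB and TRIM44, with SDHAF3, OSR2 and TPRKB in both sets of 5.

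For DCT the cutoff in the same way admits only transcripts that are highest or lowest in dark 1. Without that library 9 of the 110 transcripts with positive r and 4 of the 24 with negative r still passed. Many were low: 55.5% of the 110 had a mean under 1 FPKM, against 27.3% of all tested transcripts, 13 were listed at 0 in every white library, and 9 were above 0 in dark 1 alone. Of the 110, 47 (42.7%) were higher in dark skin without overlap, against 7.65% of all tested transcripts, and of the 24, 16 (66.7%) were lower, against 7.06%, as a likeness to DCT, which itself separates the breeds, favors. Closest among named transcripts was TYROBP, a signalling adaptor of macrophages and other myeloid cells, at 22.2, 16.2 and 16.6 FPKM in dark skin and 15.2, 15.0 and 16.2 FPKM in white skin (r = 0.986). CASC1 (r = 0.983), OPA1, a fusion GTPase of the inner mitochondrial membrane (r = 0.980), XRCC6, a subunit of the Ku repair complex (r = 0.978), and TRIM38 (r = 0.977) followed. Without dark 1, r of these 5 was between 0.761 (TYROBP) and 0.863 (CASC1), under the cutoff in each case. None of these moved as far as DCT, since OPA1, with the widest change of the 5, had 1.96 times the mean FPKM in dark skin. TYROBP was on the list of macrophage and osteoclast markers, of which the other 7 tested transcripts had r with DCT under the cutoff. The summed level of that list overlapped between the breeds (284 to 336 FPKM in dark skin and 290 to 345 FPKM in white skin), but CTSK alone made up 209 to 279 FPKM of it.

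Lowest with DCT was HNRNPA2B1, an RNA-binding protein of splicing and transport, at 71.5, 88.9 and 86.6 FPKM in dark skin and 90.4, 89.5 and 90.7 FPKM in white skin (r = -0.992). RBMS3, another RNA-binding protein, had 6.81 FPKM in dark 1 and between 15.0 and 19.8 FPKM elsewhere (r = -0.983). TGOLN2, a membrane protein of the trans-Golgi (r = -0.978), CCDC84 (r = -0.970) and CERS6, a ceramide synthase (r = -0.967), completed the 5. Without dark 1 their r was between -0.989 (TGOLN2) and -0.861 (HNRNPA2B1). With libraries scaled to their median RBMS3 passed the cutoff at -0.953, and HNRNPA2B1 (-0.852), TGOLN2 (-0.902), CCDC84 (-0.814) and CERS6 (-0.943) did not. Each of these 5 was lower in dark skin without overlap, and none was called by limma, with adjusted p between 0.613 and 0.748.

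**Figure D4:**
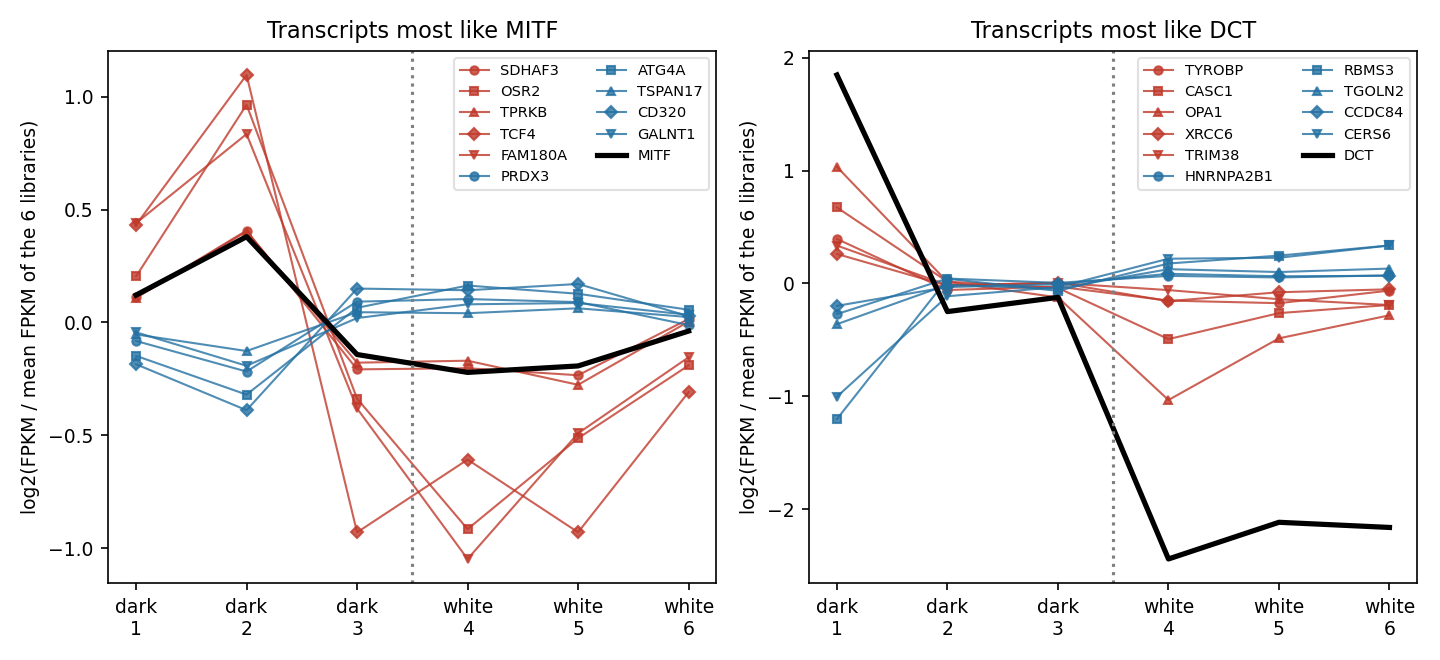
Named transcripts with the 5 highest (red) and 5 lowest (blue) Pearson's r on FPKM with MITF (left) and DCT (right), as log2 of FPKM over the mean of the 6 libraries, by library (dotted line between the breeds). The black line is MITF or DCT itself. The MITF lines turn at dark 2 and the DCT lines at dark 1, as the cutoff requires, and DCT spans a wider range than each transcript that follows it.

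Which transcripts followed DCT depended on the scale. On log2(FPKM + 0.1), where dark 1 weighs less, 61 transcripts had r of at least 0.95 with DCT and 66 had r of at most -0.95, so positive r made up 48.0% instead of 82.1%. Of the 110 transcripts with positive r on FPKM, 22 passed on the log2 scale. The 5 highest on the log2 scale were GPATCH3 (r = 0.998), ZNF32 (r = 0.990), ZNF317 (r = 0.988), RBM3, a cold-induced RNA-binding protein (r = 0.984), and ZNF7 (r = 0.982). They share none of the 5 highest on FPKM. GPATCH3 had 7.45, 6.27 and 6.22 FPKM in dark skin and between 5.32 and 5.4 FPKM in white skin, and RBM3 had 147, 122 and 117 FPKM in dark skin and 103, 104 and 105 FPKM in white skin. DCT separates the breeds widely on the log2 scale, so a transcript can pass this cutoff only without overlap, as all 61 did, against 7.65% of all tested transcripts. Without dark 1, r of these 5 on FPKM was between 0.938 and 0.994. For MITF the log2 scale gave 85 positive and 101 negative transcripts, so positive r made up 45.7% instead of 77.0%, and 82 of the 141 positive transcripts passed on both scales.

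Markers of other cell types were set beside DCT, since whole skin was sequenced. The summed FPKM of 5 transcripts of erythroid markers was 1.98 to 4.16 in dark skin and 7.31 to 15.5 in white skin, and that of 7 transcripts of endothelial markers was 70.7 to 85.5 in dark skin and 95 to 131 in white skin. Neither sum overlapped between the breeds, like DCT but in the other direction. For the erythroid list 3 of 4 tested transcripts, and for the endothelial list 3 of 7, were lower in dark skin without overlap, against 7.06% of all tested transcripts. Those of the erythroid list were of ALAS2 and HEMGN only. A single ALAS2 transcript made up 1.48 to 13.5 FPKM of the erythroid sum, while HEMGN ran from 0.0625 to 0.642 FPKM. Fibroblast sums overlapped (3579 to 4491 FPKM in dark skin and 4071 to 4638 FPKM in white skin), although 4 of 10 tested transcripts, all of POSTN, were lower in dark skin without overlap, beside the same 7.06% of all tested transcripts. Sums also overlapped for Schwann cell markers (106 to 150 FPKM and 132 to 156 FPKM), cells that share the neural crest origin of melanocytes, and for keratinocyte markers (265 to 521 FPKM and 371 to 446 FPKM), where KRT14 alone made up 199.8 to 462 FPKM. Of the 8 Schwann cell transcripts S100B was lower in dark skin without overlap, at 6.42, 4.57 and 5.54 FPKM against 25.8, 8.73 and 14.6 FPKM (adjusted p = 0.472 from limma). Of the 5 tested keratinocyte transcripts 1 of TP63 was higher without overlap, at 12.3, 13.3 and 13.6 FPKM against 8.30, 9.57 and 7.33 FPKM (adjusted p = 0.405 from limma), and another of TP63 was lower without overlap. Over all tested transcripts 7.65% were higher and 7.06% lower in dark skin without overlap. Of the 8 tested macrophage and osteoclast transcripts C1QB was lower in dark skin without overlap and TYROBP higher, beside the same shares of all tested transcripts. Mast cell markers, of interest because mast cells use MITF, gave 20.9 to 24.6 FPKM in dark skin and 15.9 to 37.7 FPKM in white skin. The muscle gene CKM summed to 228 FPKM in white 4, 67.2 FPKM in white 5 and 20.8 FPKM in dark 3, and to between 2.56 and 3.02 FPKM in the other 3 libraries. The 3 libraries with most CKM were those with the lowest MITF. Hair follicle markers were represented by LGR5 alone, at 19.5 to 32.5 FPKM in dark skin and 20.8 to 27.8 FPKM in white skin. The 2 transcripts of the collagen genes COL1A2 and COL3A1, which fibroblasts make in quantity, were listed at 0 in all libraries, so a 0 in this table can be a failed estimate. The part of these cell types in the DCT and MITF values was not tested.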

How the data were processed

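The authors aligned 100-bp paired-end reads to the goat genome with TopHat2 2.0.9 and Bowtie2 2.0.6 and assembled transcripts with Scripture and Cufflinks 2.1.1. They calculated FPKM per library with Cuffdiff and deposited these FPKM values, 1 per transcript. The study names Cuffdiff 2.1.1, but the sample records list both 2.1.1 and 2.2.2. Estimates for a transcript depend on how reads were shared between the transcripts of a gene. They hold no counts, so the number of reads behind a single value is unknown, and neither counting errors nor coordinates are given. Symbols came from RefSeq accessions, matched without version through ARS1.2, for 9497 of 27947 transcripts (34.0%). RefSeq lists 7 accessions for MITF, of which 1 is in the table, and other MITF transcripts may lack a symbol.

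The linear model on log2(FPKM + 0.1) used limma 3.58.1 under R 4.3.3, with a mean-variance trend in eBayes, and scipy 1.17.1 under Python 3.11.15 gave the exact tests and correlations. Scripts were tested on simulated data. The members and lists were chosen with earlier results of these data known. Named were MITF, DCT and members of the 5 melanocyte lists that were called, without overlap or past the r cutoff. Any pigment protein or transcription factor of these lists could be named too. For MITF and DCT each, the 5 highest and 5 lowest r on FPKM and the 5 highest on the log2 scale were named, with symbol and a mean of at least 1 FPKM. RAB38, EDNRB, DKK1, CTSK, ATP6V0D2 and the single markers named for other cell types were picked after their values were seen. Alternatives were other pseudocounts (0.01, 1 or none), filters (none or 1 FPKM), scalings, log2 or rank correlation, a cutoff of 0.9, removal of breed means and each library left out. The lncRNA table was not used here.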

Additional observations from a re-analysis of the deposited data

How the results depend on the processing

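No paired analysis was possible because the breeds share no replicate number. The log2 difference of DCT kept its direction and stayed short of the threshold in all alternatives, from 2.01 to 2.72 (adjusted p from limma 0.393 to 0.959) and with 1 library left out from 1.96 to 3.0 (0.258 to 0.668). That of MITF ran from 0.16 to 0.31 (0.617 to 0.959), and from 0.14 (without dark 2) to 0.40 with 1 library left out (0.385 to 0.917). Without the 2 libraries highest in CKM, an alternative added after seeing the data that leaves 1 white library assumed to vary like the others, the differences were 2.56 and 0.16. The ratio of DCT to MITF differed by 1.76 to 2.46 with other pseudocounts (exact p = 0.1 each). Their correlation turned negative (-0.0657) on deviations from the breed means, and with 1 library left out it ran from 0.290 to 0.868.

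Of the listed melanocyte transcripts 0 were called in any alternative. Over the whole table the number of calls was 26 without a filter, 1 with a mean of at least 1 FPKM, 28 without trend and 0 by limma without the 2 libraries highest in CKM (1215 at an unadjusted p under 0.05), and with 1 library left out between 1 (without dark 2 or white 6) and 7 (without white 5), with 4 without dark 3. Transcripts past the r cutoff with MITF numbered 672 at a cutoff of 0.9, 396 with breed means removed, 305 with libraries scaled to their median, and 394 to 570 with 1 library left out, which leaves fewer degrees of freedom. With DCT they numbered 368, 292 and, without a filter or with a mean of at least 1 FPKM, 329 and 68, and 331 to 464 with 1 library left out. The causes were not tested. Of 270 recalculated r of named transcripts 65 changed side of the cutoff of 0.95, most often with rank correlation or libraries scaled to their median, and 0 changed sign. Of 54 recalculated differences of named list transcripts 0 changed sign or were called, but with 1 added in place of 0.1 that of BCL2A1 was -0.54 and that of POU3F2 -0.09, and without the 2 libraries highest in CKM that of WNT2 was -0.61.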

Other observations

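Calpain 3 (CAPN3) is listed among MITF-linked pigment genes but is also the main calpain of skeletal muscle. Its more abundant transcript had 0.258, 0.549 and 0.811 FPKM in dark skin and 9.64, 2.6 and 0.226 FPKM in white 4 to 6. Its 3 highest libraries were the 3 with most CKM, in the same order. LEF1, a partner of beta-catenin that activates the melanocyte promoter of MITF, was between 0.00105 and 0.00254 FPKM in 3 libraries, and at 2.24 FPKM in dark 3 and 2.51 and 5.86 FPKM in white 4 and 5, again the 3 libraries with most CKM. MITF was at its 3 lowest values in these libraries, 8.31 to 8.78 FPKM. The 3 lowest LEF1 values may be failed estimates, and a link between LEF1 and MITF was not tested.

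SLC7A11, the cystine transporter that bears on the balance of red-yellow and black pigment, had 0.493, 0.234 and 3.29 FPKM in dark skin and 0.802, 1.70 and 1.23 FPKM in white skin. CAPN3, LEF1 and SLC7A11 were picked from the lists after their values were seen.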
